A study of Mus musculus with 8 samples.

Results

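Long intergenic noncoding RNAs (lincRNAs) are transcripts of genes that lie between protein-coding genes and carry no long open reading frame. Those described here were the genes of biotype lincRNA in the GENCODE M21 annotation whose raw read count, averaged over 8 RNA-Seq libraries of mouse macrophages, was at least 20. This rule kept 164 of the 4151 lincRNAs in a count table of 49315 genes. Of the lincRNAs left out, 3987 in all, 3006 had no count in any library. The 164 were chosen by their mean count over both groups together, so the level of a lincRNA is a description. The difference between the groups was not itself a criterion, but it could decide membership near the threshold. Some lincRNAs reached the threshold through the libraries of either group alone, as counted below, and for these the difference is a description too.

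Many lincRNAs stay in the nucleus and act there, as scaffolds of nuclear bodies (Neat1, which builds paraspeckles), as components of the speckles that store splicing factors (Malat1), or next to their own gene, as with Trp53cor1 (lincRNA-p21) beside Cdkn1a. Others are processed into small RNAs, as the Snhg and Mir host transcripts are. In macrophages several lincRNAs are induced by interferon or by microbial products, and AW112010 is one of them.

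The libraries were made from bone marrow-derived macrophages (BMDMs), primary macrophages grown from the marrow of C57BL/6 mice in IMDM with 10 ng/ml macrophage colony-stimulating factor. By lipofection they received either a gapmeR against MAARS (Macrophage-Associated Atherosclerosis lncRNA Sequence, listed as Gm14461) or a negative control gapmeR. A gapmeR is a short antisense oligonucleotide that leads RNase H to cut a chosen RNA. The dose is 25 nM in the labels, whereas the methods give it as an amount in nmol. The study sequenced them to find the pathways that MAARS knockdown affects. Control replicates 2, 5, 6 and 7 and MAARS gapmeR replicates 9, 11, 13 and 15 gave 4 libraries per group, of ribodepleted total RNA read in pairs of 100 nt. Nothing in the labels says that the libraries came from separate mice, and the age and sex of the mice are not given in the sources used here. The p-values therefore measure the spread between these libraries, which may be technical. The cells were measured in bulk, so fewer cells of a type and less RNA per cell cannot be told apart.

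Between 19287279 and 20567123 counts fell on genes in the control libraries and between 20839671 and 24541205 in the MAARS gapmeR libraries, so that every MAARS gapmeR library was deeper than every control library. The summed level of 7 macrophage markers was 13759 to 16991 CPM (normalized counts scaled to a common library total) with control gapmeR and 16853 to 20083 CPM with MAARS gapmeR. Most of that sum is Lyz2, and of the 7 markers 4 were called higher, Cd68 and Fcgr1 were called lower (log2 fold changes of -0.34 and -2.09) and Adgre1 did not pass the test. Of the T cell markers, Cd3d, Cd3e and Cd8a had a mean count under 1, and the list's sum, nearly all of it Cd4, was 66.0 to 85.7 CPM with control and 40.7 to 51.6 CPM with MAARS gapmeR. The sum of 4 B cell markers was 0.666 to 1.92 CPM against 4.97 to 21.4 CPM, nearly all Ighm, with Cd79a and Ms4a1 at mean counts of 1.75 and 2, and that of 5 neutrophil markers was 52.5 to 148.5 CPM against 55.5 to 88.7 CPM. The 5 fibroblast or stromal markers summed to 438.0 to 1006 CPM and 691.1 to 1193 CPM, the 4 endothelial markers to 48.8 to 79.6 CPM and 76.9 to 139.5 CPM, where Vwf was called higher, Kdr lower and the other two neither, and the 3 erythroid markers to 0 CPM and at most 0.303 CPM. All 68 genes of a list of interferon-stimulated genes were lower in the MAARS gapmeR group by edgeR's quasi-likelihood test (adjusted p under 0.05). Of all genes tested, 24.0% were lower. The list was chosen with earlier results of these data known, so the fall of all its genes is a description. The summed level of the 68 was 15743, 18629, 22748 and 20937 CPM in control libraries 2, 5, 6 and 7, and 3301 to 6078 CPM in the MAARS gapmeR libraries. The part of these differences in the lincRNA results was not tested.

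The promoter windows that RefSeq holds for MAARS, AW112010, 9330175E14Rik, Gm26637 and Lockd, whose positions or changes the results below turn on, are given here in GRCm38.p6, with that of Eif2ak2, the coding gene that shares its start region with Gm26637. Each runs 5′ to 3′ on the strand of the gene, from 250 bases before the start in RefSeq to 50 after it. For AW112010 that start lies 5242 bp inside the GENCODE gene, so the window is not at the GENCODE start. For Gm26637 RefSeq holds 4 windows that overlap, with starts 150 to 158 bp before the GENCODE start, and the first is shown. The windows are chr2:78237297-78237596 (plus strand) for MAARS, chr19:11050517-11050816 (minus strand) for AW112010, chr8:94435054-94435353 (minus strand) for 9330175E14Rik, chr17:78881634-78881933 (plus strand) for Gm26637, chr17:78882523-78882822 (minus strand) for Eif2ak2 and chr6:134928842-134929141 (plus strand) for Lockd. Capitals mark letters of 3 searched motifs, the core of the interferon-stimulated response element (GAAA, any 2 bases, then GAAA), the gamma-activated site (TTCNNNGAA) and the AP-1 site (TGANTCA), each read on both strands and counted separately where matches overlap.
MAARS: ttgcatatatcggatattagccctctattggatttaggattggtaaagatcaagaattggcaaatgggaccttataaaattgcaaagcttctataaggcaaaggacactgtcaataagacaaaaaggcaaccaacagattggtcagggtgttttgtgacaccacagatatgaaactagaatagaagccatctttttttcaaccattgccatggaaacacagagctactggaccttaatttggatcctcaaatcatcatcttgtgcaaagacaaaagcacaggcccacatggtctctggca
AW112010: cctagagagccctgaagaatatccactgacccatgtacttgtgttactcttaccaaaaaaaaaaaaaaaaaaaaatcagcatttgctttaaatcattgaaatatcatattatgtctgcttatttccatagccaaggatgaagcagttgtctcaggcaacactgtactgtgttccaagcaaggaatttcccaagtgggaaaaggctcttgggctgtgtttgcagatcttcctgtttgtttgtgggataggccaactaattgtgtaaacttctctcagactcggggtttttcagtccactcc
9330175E14Rik: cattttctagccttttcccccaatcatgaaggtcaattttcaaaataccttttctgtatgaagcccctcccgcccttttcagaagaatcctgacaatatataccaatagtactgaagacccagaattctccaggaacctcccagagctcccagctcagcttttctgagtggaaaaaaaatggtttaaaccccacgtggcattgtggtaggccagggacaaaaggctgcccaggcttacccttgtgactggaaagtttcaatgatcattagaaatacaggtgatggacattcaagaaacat
Gm26637: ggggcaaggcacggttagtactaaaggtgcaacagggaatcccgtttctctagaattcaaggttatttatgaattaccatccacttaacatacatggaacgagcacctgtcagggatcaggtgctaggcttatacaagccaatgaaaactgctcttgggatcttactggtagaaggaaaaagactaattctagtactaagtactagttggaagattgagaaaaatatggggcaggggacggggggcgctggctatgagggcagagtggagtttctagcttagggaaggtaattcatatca
Eif2ak2: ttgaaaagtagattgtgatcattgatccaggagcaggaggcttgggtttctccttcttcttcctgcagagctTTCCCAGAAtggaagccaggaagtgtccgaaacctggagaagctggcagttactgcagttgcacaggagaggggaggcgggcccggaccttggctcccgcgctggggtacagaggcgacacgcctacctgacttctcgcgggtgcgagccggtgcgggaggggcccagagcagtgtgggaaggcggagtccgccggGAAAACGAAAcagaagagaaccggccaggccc
Lockd: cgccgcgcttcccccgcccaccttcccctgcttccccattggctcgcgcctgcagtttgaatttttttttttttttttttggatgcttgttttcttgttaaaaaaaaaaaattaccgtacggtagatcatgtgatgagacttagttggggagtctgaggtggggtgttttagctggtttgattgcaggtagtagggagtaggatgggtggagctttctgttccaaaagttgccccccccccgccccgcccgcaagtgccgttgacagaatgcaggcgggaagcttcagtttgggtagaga

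Of these 6 windows only that of Eif2ak2 held a match. It carried the response element core as GAAAACGAAA at bases 269 to 278 and the gamma-activated site as TTCCCAGAA at bases 73 to 81. Promoters of 85 of the 164 lincRNAs could be matched by symbol in the RefSeq table. The response element core was in 2 of the 85, against 3.49% of all 27025 promoters of the same length, and in 1 of the 16 promoters of lincRNAs that fell and in 0 of the 15 of those that rose. The gamma-activated site was in 4 of the 85 (8.47% of all promoters), in 0 of the 16 and in 2 of the 15. The AP-1 site was in 9 of the 85 (7.93% of all promoters), in 1 of the 16 and in 2 of the 15. A match is a run of letters in a window and not a site of binding, and its absence concerns these windows only.

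After MAARS knockdown, 30 of the 164 lincRNAs rose and 23 fell, and 111 did not pass the test. Together 53 lincRNAs, 32.3%, were called at an adjusted p under 0.05 by edgeR's quasi-likelihood test, adjusted over the 13051 genes tested, against 45.4% of all genes tested. The share that rose was 18.3% against 21.3% of all genes, and the share that fell was 14.02% against 24.0%. All 164 passed edgeR's filter on low counts, and none had fewer than 4 counts in any library. Of the 164, 18 had a control mean count under 20 and so reached the threshold through the MAARS gapmeR libraries alone, and 6 of these are among the 30 that rose, while 1 reached it through the controls alone and is among the 23 that fell. The median log2 fold change (MAARS gapmeR over control gapmeR) was 0.15 over the lincRNAs and 0.01 over all genes tested, with 103 lincRNAs above 0 and 61 below. When upper-quartile factors replaced TMM, the median of all genes tested moved to 0.07, and 36 lincRNAs rose and 16 fell.

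**Figure D1:**
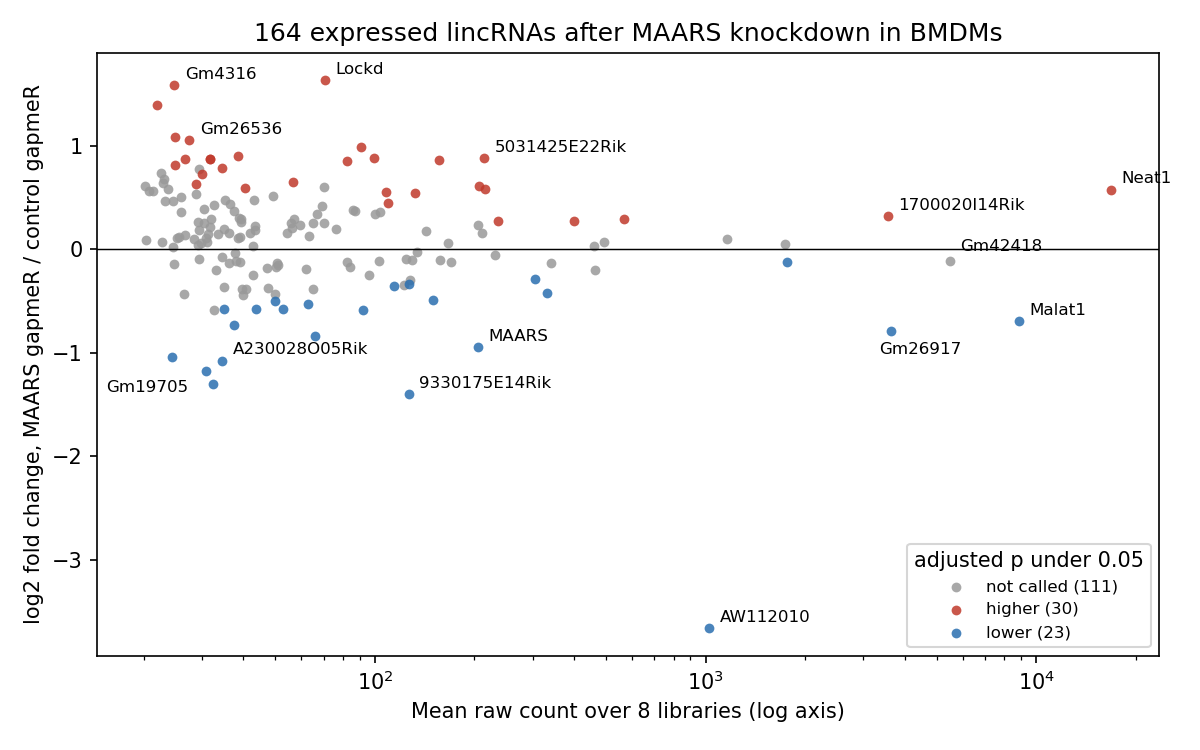
Log2 fold change of each of the 164 lincRNAs (y axis, MAARS gapmeR over control gapmeR, fitted by edgeR) against its mean raw count over 8 libraries (x axis, log scale). Each point is a lincRNA, red where higher (30), blue where lower (23) and grey where not called (111). AW112010, at -3.66, lies apart from all others, and the called lincRNAs of high count include Neat1 above 0 and Malat1 below it.

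The lincRNAs were less abundant than coding genes, and the share called followed the count. In 88 lincRNAs with a mean count of 20 to under 50, 23.9% were called, beside 27.6% of 802 protein-coding genes in the same range. From 50 to under 200 counts these shares were 33.3% of 51 lincRNAs and 39.5% of 1746 coding genes. With 200 counts or more they were 60.0% of 25 lincRNAs and 52.97% of 8680 coding genes. The median standard error of the log2 fold change was 0.200 for the lincRNAs and 0.0777 for the coding genes tested. In the lowest range both classes leaned upward, with 62 of 88 lincRNAs and 534 of 802 coding genes above 0, and the greater depth of the MAARS gapmeR libraries was not tested as a part of it. Among other noncoding classes, 26.1% of 261 antisense genes, 29.6% of 169 genes annotated as processed transcripts and 15.8% of 120 genes of the TEC class were called.

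**Figure D2:**
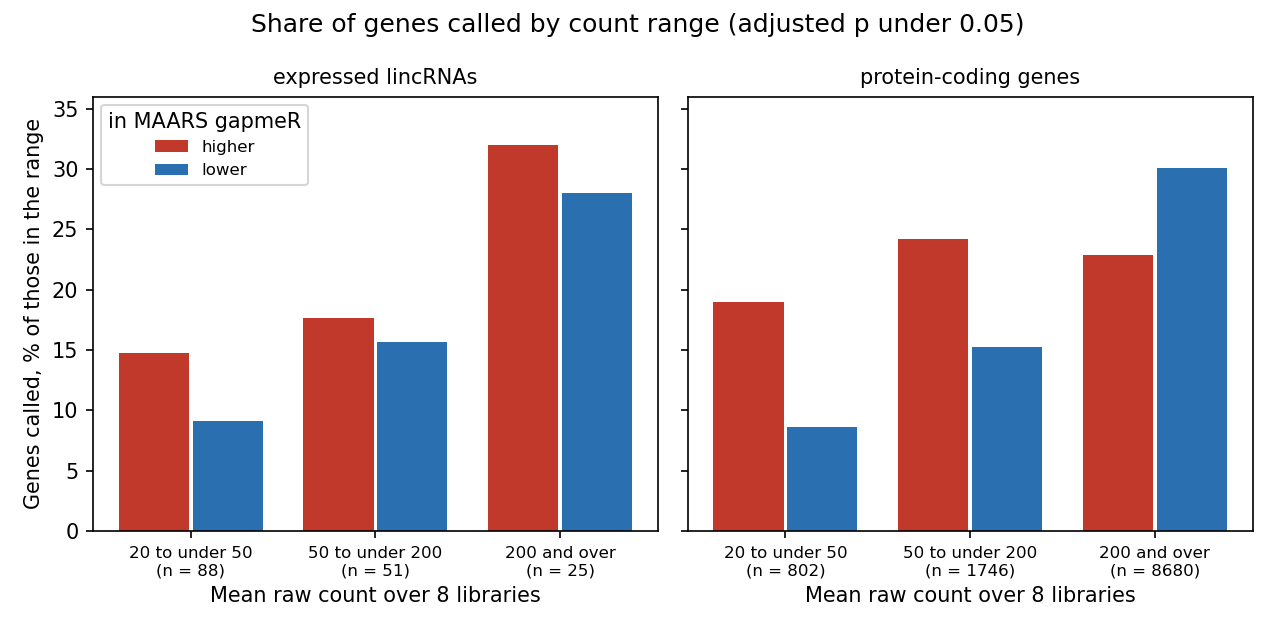
Percentage of genes called higher (red) or lower (blue) with MAARS gapmeR at an adjusted p under 0.05, in 3 ranges of mean raw count, for the expressed lincRNAs (left) and for protein-coding genes (right). The number of genes in each range stands under its bars. The share of lincRNAs called rose from 23.9% in the lowest range to 60.0% in the highest.

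Counts were concentrated in a few lincRNAs. Neat1 and Malat1 took 45.2% of all counts on the 164, and the 10 with the most counts took 78.6%. Per kilobase of exon the levels ran from 0.176 to 142.1 CPM with a median of 1.11 CPM per kb, against a median of 6.58 CPM per kb for coding genes with a mean count of at least 20. In the control libraries Gm42418 had the highest level per length, 147.9 ± 6.95 CPM per kb (SD, n = 4), and AW112010 followed with 120.2 ± 53.5 CPM per kb, a spread that reached Gm42418. Malat1 had 75.4 ± 17.2, Gm26917 67.0 ± 7.98 and Gm10076 59.3 ± 4.27 CPM per kb, and these 3 neighbours in the order lay within their SDs of each other. Neat1 followed at 30.3 ± 1.63 CPM per kb. At the other end, the lincRNAs just inside the threshold were Gm17501, 2810405F17Rik and Gm12319 with mean counts of 20.25, 20.375 and 20.75, and those just outside were Jpx, Gm10384 and 2310069B03Rik with 19.875, 19.75 and 19.375. Log2 fold changes were 0.61, 0.09 and 0.56 for the 3 inside and 0.01, 1.52 and -1.56 for the 3 outside. Gm10384 was called higher (adjusted p = 0.00114 by edgeR) and 2310069B03Rik lower (adjusted p = 0.000856 by edgeR). Jpx and the 3 inside did not pass the test.

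MAARS, the target of the gapmeR, was lower in every library that received it. It lies on the plus strand of chr2:78237547-78302230 (GRCm38), and its 6-exon transcript of 1780 nt shares no exonic base with another gene. RefSeq lists the same locus as protein-coding. The study reported a very low predicted coding potential for MAARS, and no peptide was detected from a tagged construct in transfected cells. Its level was 12.2, 15.1, 12.98 and 12.2 CPM in control libraries 2, 5, 6 and 7, and 7.71, 6.41, 7.31 and 5.85 CPM in MAARS gapmeR libraries 9, 11, 13 and 15. No MAARS gapmeR library reached the lowest control. The level fell by 48.1%, a log2 fold change of -0.95 (SE 0.112, adjusted p = 5.8e-05 by edgeR). The study reported a larger knockdown of MAARS in BMDMs when it tested its gapmeRs, and did not give one for these libraries. The nearest protein-coding gene tested lay more than 100 kb away.

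AW112010 fell most of the 164. It is a transcript of innate immune cells that interferon and microbial products induce, and it lies on the minus strand of chr19:11047612-11055808. Its level was 50.8, 69.2, 136 and 130.4 CPM in control libraries 2, 5, 6 and 7, and 6.62, 7.20, 9.74 and 7.02 CPM in MAARS gapmeR libraries 9, 11, 13 and 15. The controls split into a lower pair (2 and 5) and a higher pair (6 and 7), and even the lowest control was far above the highest MAARS gapmeR library. The summed interferon-stimulated genes given above were likewise lower in control replicates 2 and 5 than in 6 and 7. Counts were 993 to 2655 in the controls and 140 to 212 in the MAARS gapmeR libraries. The mean level dropped from 96.7 ± 43.0 to 7.65 ± 1.42 CPM (SD, n = 4), so that it fell by 92.1%, with a log2 fold change of -3.66 (SE 0.313, adjusted p = 7.86e-06 by edgeR). Under the 15 alternatives it stayed between -3.87 and -3.46. Ccdc86, the nearest coding gene tested at 98346 bp, showed a log2 change of -1.19 (adjusted p = 5.27e-06 by edgeR).

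Both 9330175E14Rik and Gm26637 start head to head with a coding gene, and all 4 transcripts fell. 9330175E14Rik, on the minus strand of chr8:94422898-94435103, starts 747 bp from Nlrc5, which encodes the transactivator of MHC class I genes and is not on the interferon list. Its level was 6.55, 7.95, 11.03 and 10.5 CPM in control libraries 2, 5, 6 and 7, and 2.79, 3.78, 4.14 and 2.95 CPM in MAARS gapmeR libraries 9, 11, 13 and 15. As for AW112010, control replicates 6 and 7 were above 2 and 5, and the groups did not overlap. The log2 fold change was -1.40 (SE 0.189, adjusted p = 0.000143 by edgeR), and that of Nlrc5 was -1.29 (adjusted p = 1.8e-05 by edgeR), from 78.5 ± 8.47 to 32.1 ± 6.60 CPM (SD, n = 4). The exons of 9330175E14Rik share 1.31% of their bases with Nlrc5 on the opposite strand.

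Gm26637, on the plus strand of chr17:78882042-78892500, starts 531 bp from Eif2ak2, the gene of the double-stranded RNA sensor PKR. It measured 4.51, 5.86, 5.35 and 5.55 CPM in control libraries 2, 5, 6 and 7, and 2.79, 4.18, 3.63 and 3.47 CPM in MAARS gapmeR libraries 9, 11, 13 and 15. The highest MAARS gapmeR library, 11, stayed just under the lowest control, 2. Its log2 fold change was -0.59 (SE 0.148, adjusted p = 0.00713 by edgeR) beside -0.99 for Eif2ak2 (adjusted p = 1.03e-05 by edgeR), which went from 196.9 ± 9.84 to 99.1 ± 14.4 CPM (SD, n = 4). Of its exonic bases 11.4% lie opposite Eif2ak2, and because the strand setting of the counting is not stated, reads of the pair cannot be told apart there. It is the only one of the lincRNAs whose nearest tested coding gene is on the interferon list.

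Of 15 transcripts listed for innate immunity, 4 were among the 164, and of these Neat1 rose, AW112010 fell, and Mirt1 and Gm14005 did not pass the test. Among all genes tested, 21.3% rose and 24.0% fell. Gm14005, known as Morrbid and a regulator of the pro-apoptotic gene Bcl2l11 (Bim) in short-lived myeloid cells, measured 3.33 ± 0.301 CPM with control and 3.80 ± 0.634 CPM with MAARS gapmeR (SD, n = 4), with an adjusted p of 0.338 by edgeR. Bcl2l11 itself, 15772 bp away, showed a log2 change of -0.13 and did not pass the test either (adjusted p = 0.235 by edgeR). Mirt1 measured 1.54 ± 0.412 and 1.98 ± 0.315 CPM (SD, n = 4), with overlapping groups (adjusted p = 0.203 by edgeR). Of 5 others on the list that were tested outside the 164, Ttc39aos1 did not pass. Gm20559 fell (-1.04, adjusted p = 5.27e-06 by edgeR), as did Ptgs2os2 (-1.79, adjusted p = 0.00533 by edgeR), at a mean count of 11. 2700099C18Rik rose (0.84, adjusted p = 0.000404 by edgeR), as did F630028O10Rik (0.35, adjusted p = 0.0151 by edgeR).

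Neat1 rose while Malat1, its neighbour on chromosome 19, fell. Neat1 lies on the minus strand of chr19:5824708-5845478 and Malat1 on the same strand of chr19:5795690-5802672, with 22035 bp between them, and each is annotated as a single exon. Neat1 measured 621, 594, 675 and 625 CPM in control libraries 2, 5, 6 and 7, and 877, 848, 835 and 1186 CPM in MAARS gapmeR libraries 9, 11, 13 and 15. All MAARS gapmeR libraries were above all controls, and replicate 15 stood well above the other MAARS gapmeR libraries. The log2 fold change was 0.57 (SE 0.102, adjusted p = 0.000879 by edgeR), and 0.44 without replicate 15. Frmd8, 4224 bp upstream, showed a log2 change of -0.01 (adjusted p = 0.926 by edgeR).

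Malat1 measured 423, 445, 554 and 684 CPM in the controls 2, 5, 6 and 7 and 349, 262, 306 and 385 CPM in the MAARS gapmeR libraries 9, 11, 13 and 15. Control 7 was the highest and control 2 the lowest of their group, and still no MAARS gapmeR library reached control 2. The mean went from 526.3 ± 119.8 to 325.6 ± 53.4 CPM (SD, n = 4), so that it fell by 38.1%, with a log2 fold change of -0.69 (SE 0.152, adjusted p = 0.00332 by edgeR).

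Because both transcripts were counted in the same libraries, their ratio per exon length does not depend on the scaling between libraries. Neat1 to Malat1 was 0.494, 0.449, 0.410 and 0.307 in control libraries 2, 5, 6 and 7, and 0.844, 1.09, 0.917 and 1.04 in MAARS gapmeR libraries 9, 11, 13 and 15. The ratio was below 1 in every control and near 1 in every MAARS gapmeR library, without overlap. The mean log2 ratio was higher by 1.24 with MAARS gapmeR. This pair and the next were singled out after their values had been seen, so the ratios are a description with no test.

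Gm26917 and Gm42418 form the other pair, next to each other on the plus strand of chromosome 17, 616 bp apart, where Gm42418 lies over an annotated ribosomal RNA gene on the opposite strand for 99.5% of its length. Reads of repeated ribosomal RNA genes could have been assigned to either, so both levels are uncertain. Gm26917 measured 189, 219.7, 254 and 229.6 CPM in controls 2, 5, 6 and 7 and 112, 132, 132 and 139 CPM in MAARS gapmeR libraries 9, 11, 13 and 15, without overlap. Its log2 fold change was -0.79 (SE 0.0881, adjusted p = 3.73e-05 by edgeR), the second smallest p among the 164. Gm42418 measured 259 to 289 CPM in the controls and 232.3 to 296.2 CPM with MAARS gapmeR, the highest value being replicate 9 (log2 fold change -0.12, adjusted p = 0.233 by edgeR, and -0.22 with adjusted p = 0.00591 without that library). The ratio of Gm26917 to Gm42418 was 0.390 to 0.488 in the controls and 0.208 to 0.329 in the MAARS gapmeR libraries, a mean log2 difference of -0.67.

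**Figure D3:**
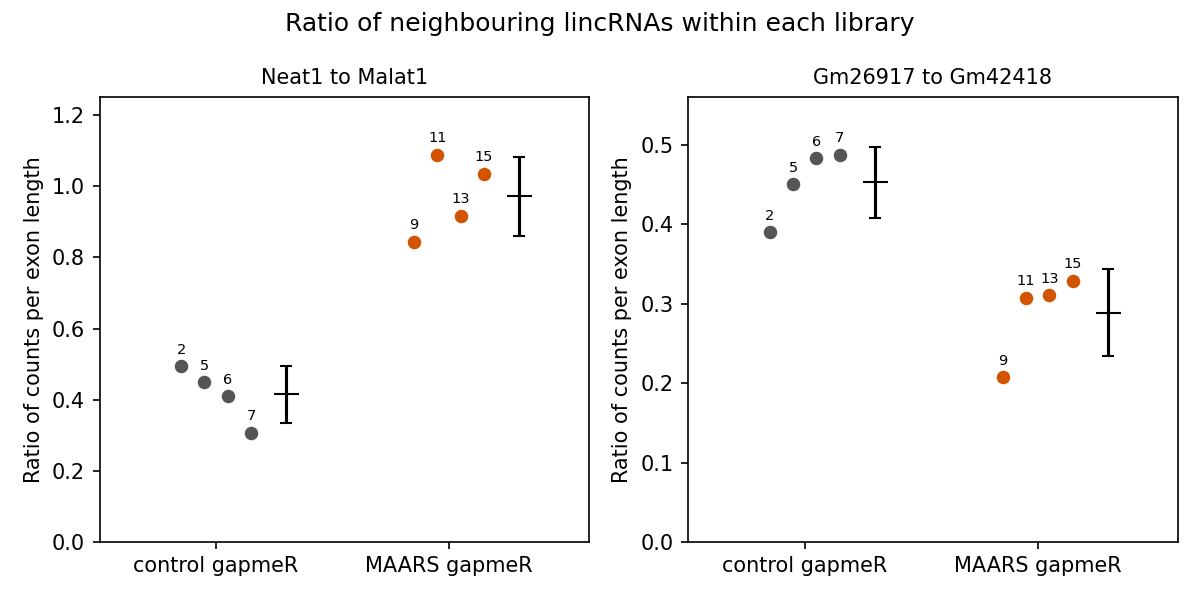
Ratio of counts per exon length within each library, for Neat1 to Malat1 (left) and Gm26917 to Gm42418 (right). Each point is a library, labelled with its replicate number, in grey for control gapmeR and orange for MAARS gapmeR, and the bar beside each group is the mean ± SD (n = 4). Neat1 to Malat1 was 0.307 to 0.494 in controls and 0.844 to 1.09 with MAARS gapmeR, and Gm26917 to Gm42418 was lower in every MAARS gapmeR library.

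The list of nuclear and X chromosome transcripts held 2 further members, and neither passed the test. 2900097C17Rik, the mouse Norad, which binds Pumilio proteins, measured 52.9 ± 2.70 and 56.5 ± 2.76 CPM (SD, n = 4), with a fitted log2 change of 0.10 (SE 0.0548, adjusted p = 0.175 by edgeR). Upper-quartile factors gave it a log2 fold change of 0.16 with an adjusted p of 0.0267. Ftx, from the X inactivation center, measured 1.89 ± 0.517 and 1.73 ± 0.493 CPM, with overlapping groups and a log2 fold change of -0.11 (SE 0.256, adjusted p = 0.746 by edgeR) that turned to 0.088 without control replicate 6.

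In the growth and p53 list, the 3 members had coding neighbours that are themselves regulators of the cell cycle. Lockd lies on the plus strand of chr6:134929092-134956798, 3579 bp past the end of Cdkn1b, which encodes the cyclin-dependent kinase inhibitor p27. Its counts were 35, 51, 15 and 21 in controls 2, 5, 6 and 7 and 99, 125, 97 and 121 in MAARS gapmeR libraries 9, 11, 13 and 15. The lowest MAARS gapmeR library was well above the highest control, and controls 6 and 7 were below 2 and 5, the order opposite to that of AW112010. The level went from 1.56 ± 0.811 to 4.84 ± 0.343 CPM (SD, n = 4), with a fitted log2 change of 1.63 (SE 0.272, adjusted p = 0.000608 by edgeR). Cdkn1b rose from 39.5 ± 3.47 to 58.1 ± 5.20 CPM, a log2 fold change of 0.56 (adjusted p = 0.000164 by edgeR).

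Trp53cor1, a p53-induced transcript on the minus strand of chr17:29057430-29079179, starts 11797 bp from Cdkn1a, the gene of the inhibitor p21. Its level was 3.07, 3.87, 4.06 and 3.29 CPM in controls 2, 5, 6 and 7 and 2.89, 2.98, 2.07 and 1.91 CPM in MAARS gapmeR libraries 9, 11, 13 and 15. The groups nearly touched, with MAARS gapmeR replicate 11 just under control replicate 2. The log2 fold change was -0.53 (SE 0.186, adjusted p = 0.0355 by edgeR), and the call was lost in 5 of 15 alternatives, among them upper-quartile factors and the fits without control replicate 5 or 6 or MAARS gapmeR replicate 13 or 15, with adjusted p-values up to 0.0937. Cdkn1a fell from 343.4 ± 24.7 to 229.7 ± 19.2 CPM (SD, n = 4), with a fitted log2 change of -0.58 (adjusted p = 5.83e-05 by edgeR). Of the exonic bases of Trp53cor1, 44.1% overlap a gene on the opposite strand.

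Pvt1, a host of microRNAs that lies 47612 bp past Myc, measured 1.88 ± 0.375 and 1.46 ± 0.0719 CPM (SD, n = 4) and did not pass the test, with a log2 fold change of -0.36 (SE 0.199, adjusted p = 0.16 by edgeR). Myc went the other way and did not pass either, at 0.45 (adjusted p = 0.111 by edgeR).

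Host transcripts of small RNAs moved in both directions, as did all genes tested, of which 21.3% rose and 24.0% fell. Of 29 transcripts listed, 6 were among the 164, and of these Snhg20 rose, Snhg6 and Snhg12 fell, and Epb41l4aos, Mir142hg and Mir17hg did not pass the test. Of 12 others on the list that were tested under another biotype, Snhg8 rose (log2 fold change 0.53, adjusted p = 0.0101 by edgeR), Zfas1 fell (-1.35, adjusted p = 2.04e-05 by edgeR) and 10 did not pass. Snhg20, a small nucleolar RNA host, measured 8.35, 6.78, 7.30 and 8.05 CPM in controls 2, 5, 6 and 7 and 10.5, 10.6, 10.5 and 14.95 CPM in MAARS gapmeR libraries 9, 11, 13 and 15. No control reached the MAARS gapmeR libraries, of which replicate 15 was again the highest. It showed a log2 change of 0.61 (SE 0.133, adjusted p = 0.00325 by edgeR), with 7.69% of its exonic sequence shared with another gene of the same strand. Snhg6 fell from 8.39 ± 0.904 to 5.97 ± 1.20 CPM (SD, n = 4) with groups that overlapped, as MAARS gapmeR replicate 15 at 7.58 CPM was above control replicate 5 at 7.13 CPM (log2 fold change -0.49, SE 0.145, adjusted p = 0.017 by edgeR).

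Snhg12 measured 6.73 ± 0.642 and 5.35 ± 0.471 CPM (SD, n = 4), with a fitted log2 change of -0.33 (SE 0.114, adjusted p = 0.0324 by edgeR). Its call was lost in 8 of 15 alternatives, among them the fits without control replicate 5, 6 or 7 or without MAARS gapmeR replicate 9, 11 or 13, with adjusted p-values up to 0.0943. Mir142hg, which carries a microRNA of blood cells, measured 6.34 ± 1.05 and 7.16 ± 1.30 CPM (adjusted p = 0.374 by edgeR). Mir17hg, from which the miR-17 to miR-92 cluster is cut, measured 1.29 ± 0.414 and 1.38 ± 0.532 CPM (adjusted p = 0.814 by edgeR). None of the 10 imprinted transcripts listed reached the threshold as a lincRNA, and H19 and Meg3 had mean counts of 8.125 and 1.125. Xist, which silences the inactive X in female cells, is a lincRNA that did not reach it either, with at most 2 counts in a library. Of the imprinted list, 4 were tested under another biotype, of which Peg13 rose (0.62, adjusted p = 1.85e-05 by edgeR) and 3 did not pass. Among all genes tested, 45.4% were called.

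**Figure D4:**
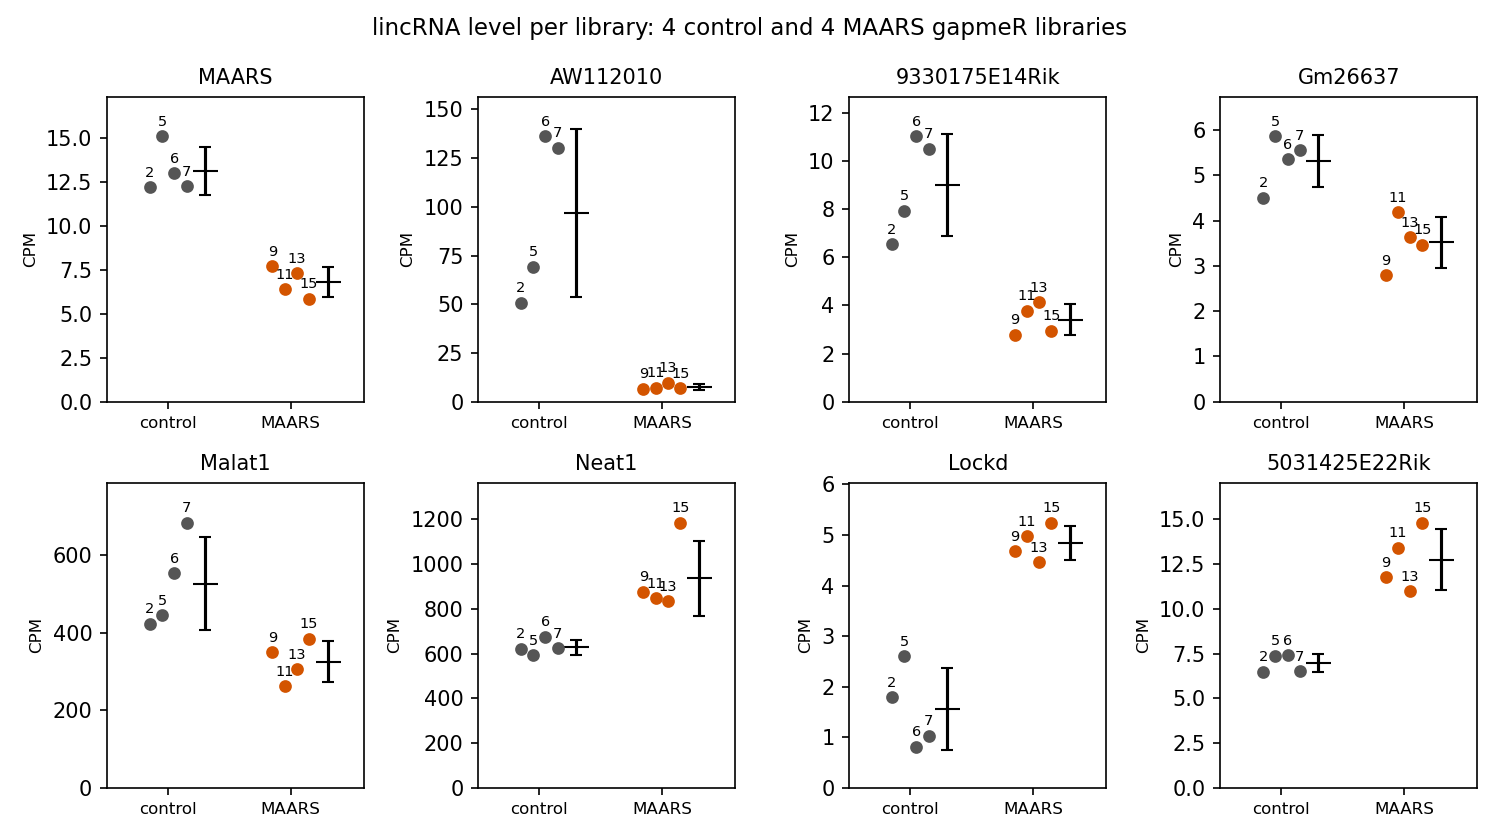
Normalized level (CPM, y axis from 0) of 8 lincRNAs in each library, labelled with its replicate number, for control gapmeR (grey) and MAARS gapmeR (orange), with the mean ± SD beside each group (n = 4). In the upper row all MAARS gapmeR libraries lie below all controls. In the lower row Malat1 is lower and Neat1, Lockd and 5031425E22Rik are higher, and replicate 15 is the highest MAARS gapmeR library in all 4 panels.

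Besides those in the lists, the lincRNAs that rose with the smallest p and no overlap between groups included several that begin close to a coding gene. 5031425E22Rik, on the minus strand of chr5:23382308-23434269, starts 172 bp from Kmt2e. It measured 6.50, 7.39, 7.41 and 6.53 CPM in controls 2, 5, 6 and 7 and 11.8, 13.4, 10.98 and 14.8 CPM in MAARS gapmeR libraries 9, 11, 13 and 15. The groups were well apart (log2 fold change 0.88, SE 0.112, adjusted p = 9.54e-05 by edgeR), while Kmt2e showed a log2 change of 0.07 (adjusted p = 0.494 by edgeR).

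4932422M17Rik, 624 bp from Setd1b, which encodes a histone methyltransferase, measured 2.90 to 3.44 CPM in the controls and 4.66 to 6.95 CPM with MAARS gapmeR. It rose with a log2 fold change of 0.88 (SE 0.155, adjusted p = 0.000886 by edgeR), and Setd1b itself had 0.10 (adjusted p = 0.347 by edgeR). Its exons overlap those of AI480526, another of the 164 on the opposite strand, for 61.5% of their bases, so that the rise of AI480526 (log2 fold change 0.86, adjusted p = 0.00344 by edgeR) may count the same reads. Gm26536 starts 529 bp from Wdfy2, and both were called higher, with log2 fold changes of 1.06 (SE 0.221, adjusted p = 0.00252 by edgeR) and 0.31 (adjusted p = 0.0102 by edgeR). Of its exonic bases 28.7% lie opposite Wdfy2, and it is one of the 6 whose control mean count was under 20.

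Gm4316 is another of these 6, with a control mean count of 11, so that it is among the 164 only because its MAARS gapmeR libraries were higher, and its difference is a description. Its counts were 11, 10, 12 and 11 in controls 2, 5, 6 and 7 and 51, 36, 28 and 39 in MAARS gapmeR libraries 9, 11, 13 and 15. Every MAARS gapmeR library held over 2 times the count of any control, and the log2 fold change was 1.58 (SE 0.269, adjusted p = 0.000676 by edgeR), which lies within 1 SE of that of Lockd. Gm6634 went from 1.25 ± 0.0865 to 2.32 ± 0.265 CPM (SD, n = 4), with a fitted log2 change of 0.90 (SE 0.179, adjusted p = 0.00187 by edgeR). Gm26809 rose by 0.58 (SE 0.0892, adjusted p = 0.000351 by edgeR) next to Lsm8, an RNA processing gene 1219 bp away with a log2 fold change of -0.10 that did not pass the test. 1700020I14Rik, abundant at 148.3 ± 7.10 CPM in controls, reached 184.9 ± 14.8 CPM (SD, n = 4), with a fitted log2 change of 0.32 (SE 0.0609, adjusted p = 0.00146 by edgeR). Among the lincRNAs outside the naming rule, Bvht, described in the heart lineage and named here after its values were seen, showed a log2 change of 0.59 (adjusted p = 0.034 by edgeR).

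Of the remaining lincRNAs that fell, F730311O21Rik went from 4.09 ± 0.603 to 2.29 ± 0.476 CPM (SD, n = 4), with a fitted log2 change of -0.84 (SE 0.183, adjusted p = 0.00339 by edgeR), while its neighbour Tmcc2 had 0.15. Gm19705 fell from 2.09 ± 0.378 to 0.919 ± 0.311 CPM, a log2 fold change of -1.18 (SE 0.265, adjusted p = 0.00396 by edgeR). Zfp281, a zinc finger gene 40716 bp away, fell by 0.46 on the log2 scale (adjusted p = 0.00152 by edgeR). A230028O05Rik fell from 2.28 ± 0.228 to 1.07 ± 0.352 CPM, a log2 fold change of -1.08 (SE 0.247, adjusted p = 0.00439 by edgeR). Gm10419 fell from 18.2 ± 1.55 to 13.6 ± 1.18 CPM, a log2 fold change of -0.42 (SE 0.0881, adjusted p = 0.00261 by edgeR). In raw counts Gm10419 overlapped between the groups, at 332 to 390 in the controls and 255 to 338 in the deeper MAARS gapmeR libraries, and after normalization it did not.

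Few lincRNAs changed by a large factor. A log2 fold change past 1.5 in either direction with an adjusted p under 0.05 was found in 3 of the 164, AW112010, Lockd and Gm4316, which is 1.83% beside 2.20% of all genes tested. Of the 3, Gm4316 is among the 164 only through its MAARS gapmeR libraries. Gm10384 and 2310069B03Rik, just outside the threshold, also passed this cut, so the number depends on where the threshold lies. In 29 lincRNAs all MAARS gapmeR libraries were above all controls and in 19 they were below, against 19.3% and 22.8% of all genes tested (42.1% in both directions together).

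Position was compared for the 147 lincRNAs with a tested protein-coding gene within 100 kb, at a median distance of 3271 bp, 25 of them overlapping that gene. Of the 27 that rose, the neighbour rose in 8, fell in 5 and did not pass the test in 14. Of the 18 that fell, the neighbour fell in 7, rose in 3 and did not pass the test in 8. Beside the 102 lincRNAs that were not called, 19 neighbours rose and 26 fell. Of all 11837 protein-coding genes tested, 22.2% rose and 25.2% fell. The numbers of pairs are small, and their difference from these shares was not tested. Pearson's r of the log2 fold changes was 0.349 over the 147 pairs and 0.262 over 146 without AW112010, as a description across genes that share the same libraries and, where exons overlap, reads.

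**Figure D5:**
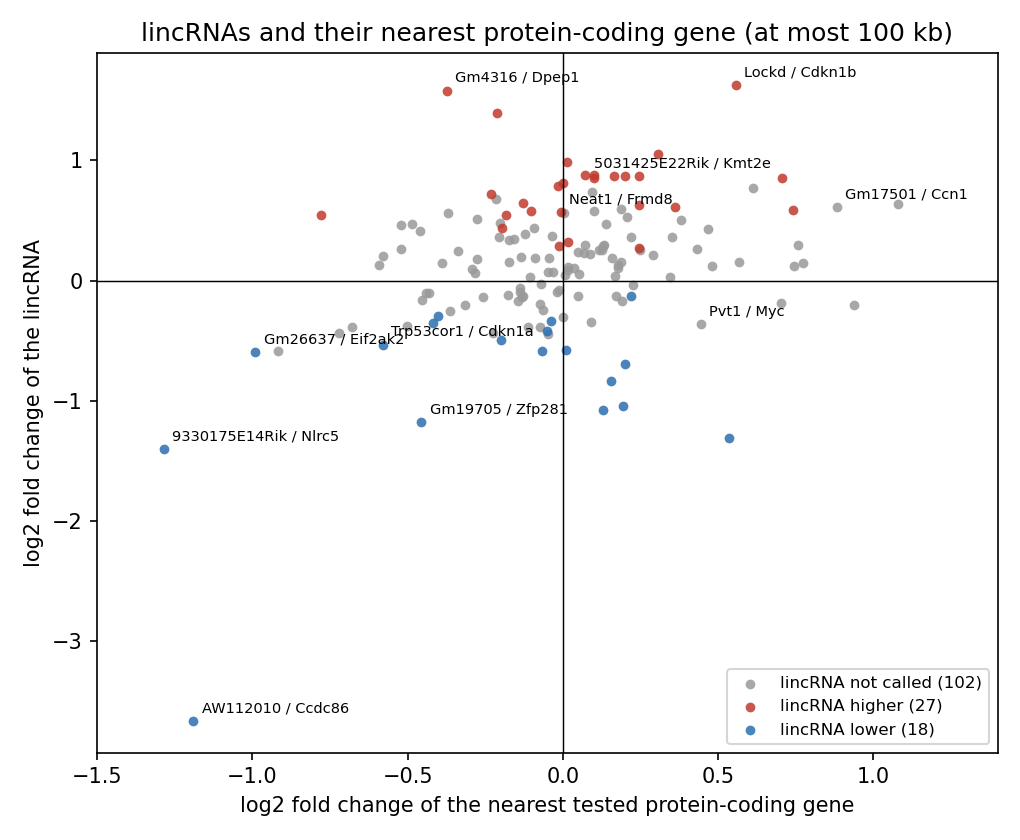
Log2 fold change of each of 147 lincRNAs (y axis) against that of its nearest tested protein-coding gene at most 100 kb away (x axis), both MAARS gapmeR over control gapmeR. Points are red where the lincRNA was higher (27), blue where lower (18) and grey where not called (102), and named pairs are written as lincRNA / neighbour. 9330175E14Rik with Nlrc5 and Gm26637 with Eif2ak2 lie at the lower left, Lockd with Cdkn1b at the upper right, and 5031425E22Rik and Neat1 near a neighbour change of 0.

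The lincRNAs that start within 2 kb of the start of a coding gene on the opposite strand numbered 35, of which 8 rose (22.9%) and 3 fell (8.57%), and of the other 129, 22 rose (17.1%) and 20 fell (15.5%), beside 21.3% and 24.0% of all genes tested. Of the 25 that start within 10 kb past the end of a coding gene on their own strand, 8 rose and 2 fell, 32.0% and 8.0% beside the same background. A longest transcript of 1 exon was annotated for 39 lincRNAs, of which 7 rose (17.9%) and 3 fell (7.69%), beside the same background. Of the 39, 31 had a log2 fold change above 0, beside 6658 of the 13051 genes tested. In 18 of the 39 MAARS gapmeR replicate 15 was the highest of its group. RefSeq lists 102 of the 164 by symbol and 10 of these as protein-coding. Of the 10, 5 fell, the gapmeR target MAARS among them, with Gm26637, Gm6712, Gm20939 and Tmem250-ps, and 0 rose, beside 24.0% and 21.3% of all genes tested. The fall of MAARS was set by the design, and 10 lincRNAs are few, so these numbers are a description. Exons overlapped another gene in 65 lincRNAs, on the opposite strand in 53, and 35.4% of the 65 were called beside 30.3% of the 99 without overlap.

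As a group the lincRNAs took a small part of each library. Counts on the 164 made up 0.250%, 0.245%, 0.274% and 0.286% of all counts in controls 2, 5, 6 and 7 and 0.273%, 0.253%, 0.257% and 0.307% in MAARS gapmeR libraries 9, 11, 13 and 15. The groups overlapped, with means of 0.264% ± 0.0198 and 0.273% ± 0.0244 (SD, n = 4), a difference smaller than the spread between replicates. Without Neat1 the order turned, at 0.202% ± 0.0176 with control and 0.177% ± 0.00914 with MAARS gapmeR, and every MAARS gapmeR library, at most 0.185%, was below every control, at least 0.188%. Without Neat1 and Malat1 the shares were 0.151% ± 0.00604 and 0.144% ± 0.00421 (SD, n = 4), with overlap. MAARS gapmeR replicate 15 was the highest of its group in 65 of the 164 lincRNAs, 39.6%, against 24.5% of all genes tested, and control replicate 7 in 52, 31.7% against 21.5%. Without MAARS gapmeR replicate 15, 25 lincRNAs rose and 21 fell, and without control replicate 7, 26 rose and 15 fell. For all genes the calls of these fits are not given here.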

How the data were processed

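RNA-Seq counts of BMDMs, 4 control gapmeR and 4 MAARS gapmeR libraries, were used, grouped by their labels. The authors trimmed reads (Trimmomatic 0.36 in the submitters' processing notes), mapped them to mm10 with STAR 2.5.2b and assigned them to genes with featureCounts of Subread 1.5.2. They deposited raw counts, without normalization. The strand setting and the treatment of reads that map to several places are not given in the sources used here.

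Counts were analysed with R 4.3.3 and edgeR 4.0.16: filterByExpr (minimum count 10, minimum total 15), TMM factors, glmQLFit and glmQLFTest, with Benjamini-Hochberg adjustment over 13051 genes. CPM are TMM-normalized, and SE is the size of the log2 change over the root of the F statistic. Alternatives used DESeq2 1.42.0, limma 3.58.1 (voom), other factors, filters and member rules, and each library left out. The procedure was also run on simulated counts in which few genes were changed. In the real data 45.4% of genes were called, so that run does not cover a change this broad. The precision rests on 19287279 to 24541205 counts per library. Replicates differed beyond sampling noise (chi-square of 4.26 to 15.4 per gene), so none were merged, which does not show that they are separate cultures. Among the controls the closest pairs were 6 and 7 (4.26) and 2 and 5 (7.86), and the other pairs had 9.96 to 15.4. What sets these pairs apart was not tested.

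Genes were annotated with GENCODE M21 (GRCm38, 99.5% of the genes found), and promoters and biotypes with RefSeq tables (GRCm38.p6). The members, lists and tests were chosen with earlier results of these data known. Named were MAARS, the list members, the 10 with the smallest p in each direction without overlap, the 6 with the highest CPM per kb, the 3 on each side of the threshold, and the nearest tested coding gene within 100 kb of those named by p. A few results under this rule are left out here.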

Additional observations from a re-analysis of the deposited data

Results flagged for a closer look

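Among 74 groups of 4 libraries examined, 1 library lay far from the other 3 by Dixon's criterion in 5, and chance flags about 1 in 20 groups. MAARS gapmeR replicate 15 stood apart in 3 of them. It held Neat1 at 1186 CPM, where the other MAARS gapmeR libraries had 835.4 to 876.7 CPM, and Snhg20 at 14.95 CPM, where the others had 10.5 to 10.6 CPM. It held 2900097C17Rik (Norad) at 52.4 CPM, below the 57.8 to 58.0 CPM of the others. MAARS gapmeR replicate 9 stood apart in the other 2, with Gm42418 at 296.2 CPM against 232.3 to 236.1 CPM and Gm10076 at 26.3 CPM against 22.7 to 23.3 CPM.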

How the results depend on the processing

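Of 23 named lincRNAs that were called, 21 kept direction and call under all 15 alternatives, and Snhg12 and Trp53cor1 lost the call under some. Most of the 23 were named for their small p in these same data. Their keeping the call was thus largely set by that choice and does not stand for all lincRNAs called. Against 30 lincRNAs higher and 23 lower, a mean count of at least 50 gave 17 and 15, members without exon overlap 18 and 12, an adjusted p under 0.01 18 and 12, and a log2 change past 1.5 in either direction 2 and 1. Each of these settings keeps fewer genes or calls by construction. Leaving out 1 library gave 25 to 29 higher and 15 to 21 lower, the 15 without control replicate 7. Of the main calls these fits kept 23 to 27 higher and 15 to 21 lower. Whether all genes lost calls to the same degree with 1 library fewer was not tested. DESeq2 gave 29 and 19, all of them shared with the main calls. Upper-quartile factors gave 36 and 16, of which 30 and 16 were shared with the main calls. The difference in the share of counts (0.0088 percentage points) turned to -0.0255 without Neat1 and to -0.00723 without Neat1 and Malat1, an alternative added after the data had been seen, and ran from -0.00264, without MAARS gapmeR replicate 15, to 0.0163, without control replicate 7, when 1 library was left out. Leaving out 1 library turned the sign of 3 lincRNAs that were not called, with log2 fold changes of -0.30 to 0.088 for Ftx, -0.21 to 0.34 for Mir17hg and -0.23 to 0.38 for 2810405F17Rik. The cause was not tested. Gm42418 was called only without MAARS gapmeR replicate 9, and Norad only with upper-quartile factors. No paired analysis was possible because the groups share no replicate numbers. Of the 88 lincRNAs with a mean count under 50, 21 were called, and whether depth kept others from a call was not tested.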
